A study of Mus musculus with 10 samples.

Results

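The Schlafen genes are a family of interferon-inducible genes that lie side by side in the mouse genome, and 7 of them (Slfn1, Slfn2, Slfn3, Slfn4, Slfn5, Slfn8 and Slfn9) are described here in macrophages treated with oxidized low-density lipoprotein (ox-LDL). They were chosen by name, as the rows of those 7 genes among the 39488 rows of the deposited count table, 23382 of which are NCBI gene identifiers. All 7 had a row and all 7 had enough counts to be tested. Bulk RNA-seq covered 5 control and 5 ox-LDL libraries of peritoneal macrophages drawn out by thioglycollate from C57BL/6 mice, labelled 8 weeks old. By the labels, the ox-LDL-treated macrophages were primed with LPS at 100 ng/ml and then given ox-LDL at 100 µg/ml for 16 h, and the control macrophages are labelled untreated. The labels' treatment field names 16 h of ox-LDL for every sample, and a legend of the study does not settle whether the controls also received LPS, so a difference between the groups may hold the effects of LPS and ox-LDL together. The series describes 5 biological replicates per group, without saying whether cells of several animals were pooled.

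Schlafen proteins share a conserved N-terminal core and are sorted by size. Short members such as Slfn1 and Slfn2 carry little more than the core, intermediate members such as Slfn3 and Slfn4 carry a further domain, and long members such as Slfn5, Slfn8 and Slfn9 add a C-terminal helicase-like domain. The family was named for its effect on T cell growth. In macrophages and other cells its genes are induced by type I interferon, which signals through the kinases Jak1 and Tyk2 to transcription factors that bind the interferon-stimulated response element (ISRE) of target genes. Some members of the family act on transfer RNA and limit translation or viral growth.

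The 7 genes lie on chromosome 11 within 263.8 kb of the mouse build mm9, 5 on the plus strand and 2 (Slfn8 and Slfn9) on the minus strand. The 160 bases upstream of the start were taken from the RefSeq promoter table (build GRCm38.p6) and are written 5′ to 3′ on the strand of the gene. They are shown for the 6 members that hold a stretch marked below in full. In the 3 long members, capitals mark a match to the ISRE pattern GAAANNGAAA on either strand.
Slfn5 (chr11:82951942-82952101, plus strand): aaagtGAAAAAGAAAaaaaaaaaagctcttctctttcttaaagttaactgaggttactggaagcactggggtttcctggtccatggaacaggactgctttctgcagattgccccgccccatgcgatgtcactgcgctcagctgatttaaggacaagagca
Slfn8 (chr11:83020811-83020970, minus strand): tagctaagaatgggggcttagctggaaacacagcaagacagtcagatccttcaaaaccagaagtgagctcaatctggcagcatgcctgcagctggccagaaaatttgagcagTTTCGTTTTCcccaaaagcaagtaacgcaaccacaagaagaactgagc
Slfn9 (chr11:82991831-82991990, minus strand): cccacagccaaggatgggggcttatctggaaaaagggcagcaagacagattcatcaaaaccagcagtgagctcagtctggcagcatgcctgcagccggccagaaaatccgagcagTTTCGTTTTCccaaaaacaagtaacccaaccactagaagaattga
In Slfn1, Slfn2 and Slfn4, capitals mark ACTTCCTGGAG, the longest run of bases that these 3 promoters share, which was noticed in the sequences themselves.
Slfn1 (chr11:83116660-83116819, plus strand): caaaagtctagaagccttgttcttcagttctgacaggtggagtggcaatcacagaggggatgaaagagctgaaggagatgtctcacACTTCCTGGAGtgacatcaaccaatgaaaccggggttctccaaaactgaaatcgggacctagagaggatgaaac
Slfn2 (chr11:83064952-83065111, plus strand): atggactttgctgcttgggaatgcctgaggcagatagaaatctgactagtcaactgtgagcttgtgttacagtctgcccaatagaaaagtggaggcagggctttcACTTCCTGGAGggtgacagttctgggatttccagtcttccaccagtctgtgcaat
Slfn4 (chr11:83175026-83175185, plus strand): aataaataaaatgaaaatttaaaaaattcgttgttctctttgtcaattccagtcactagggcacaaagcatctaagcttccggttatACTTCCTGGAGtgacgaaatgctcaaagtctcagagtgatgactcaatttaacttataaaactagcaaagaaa
Over the 250 bases upstream of the start, the ISRE pattern was found in 3 of 7 members and in 2.98% of 32851 RefSeq promoters, with its first base at -155 for Slfn5, -48 for Slfn8 and -45 for Slfn9. The run shared by Slfn1 (-74), Slfn2 (-55) and Slfn4 (-73) occurred in 20 of the 32851 promoters (0.0609%), and it did not overlap an ISRE match. Since the run was taken from these 3 promoters, its presence in all 3 was fixed in advance and is no test. The pattern of the gamma-activated sequence, TTCNNNGAA, was in none of the 7 members and in 7.02% of promoters. Slfn3 held none of the patterns in full, but it held ACTTCCTGG, the first 9 bases of the shared run. Slfn3 also shared another run of 11 bases with Slfn2, as long as the run of Slfn2 and Slfn4. The longest run that Slfn5 shared was 8 bases with Slfn8 and 7 with Slfn9. The promoters of Slfn8 and Slfn9 were 85.1% identical over 242 aligned bases. A match is a match of letters, and these data hold no measurement of binding.

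Macrophage markers were detected in every library, and ox-LDL replicate 2 and control replicate 5 stood apart. Total counts were 20094647 to 20687289 per control library and 19257131 to 20358017 per ox-LDL library. Levels of single genes are given as TMM-normalized CPM, counts scaled to a common library size after edgeR's correction for library composition, unless another scale is named. The TMM factor of ox-LDL replicate 2 was 0.593 and those of the other libraries were 0.837 to 1.19. That library deviated from its group by gene length, with a median of 0.56 for genes under 2 kb and -0.49 for genes over 4 kb (log2). Of the 10 macrophage markers, all were tested, and their summed level without TMM was 23280 to 43030 CPM in control and 13400 to 28520 CPM in ox-LDL libraries. Most of this was Lyz2 (9360 to 40900 CPM), and the other macrophage markers summed to 2120 to 3830 CPM in control and 2180 to 4980 CPM in ox-LDL libraries. Schlafen genes are also expressed in T cells, and apart from Il7r, at 263 to 825 CPM, the other T cell markers summed to 0.455 to 1.13 CPM in control and 1.70 to 4.41 CPM in ox-LDL libraries. Cd3e was at 0 in every library except ox-LDL replicate 1, at 0.0518 CPM. Neutrophil markers summed to 19.5 to 45.0 CPM in control and 24.3 to 92.4 CPM in ox-LDL libraries, most of the latter from S100a8. Without S100a8 they summed to 7.67 to 38.7 CPM in control and 2.23 to 11.4 CPM in ox-LDL libraries. In the same order of groups, B cell markers summed to 45.7 to 58.0 and 12.8 to 32.7 CPM (without Cd22, 1.73 to 3.66 and 0.949 to 4.40 CPM). Dendritic cell markers summed to 1.77 to 2.79 and 2.79 to 4.46 CPM. NK cell markers summed to at most 1.10 CPM, and platelet markers to at most 1.22 CPM with Gp9 at 0 throughout. The part of such cells in the Schlafen levels was not tested, and in bulk RNA fewer cells of a type and less RNA per cell cannot be told apart.

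Of the 7 Schlafen genes, 4 were higher in ox-LDL-treated macrophages at an adjusted p below 0.01 (Slfn1, Slfn2, Slfn5 and Slfn8), where 9.4% of the 12654 genes tested were higher by edgeR's quasi-likelihood test. This count was 1 without control replicate 1, 3 or 4, where 6.68%, 7.16% and 6.39% of the genes tested were higher. It was 2 without control replicate 2 (6.65% of genes), without a filter on low counts (4.14% of 29267 genes) or with limma on log2(FPKM + 1) (5.44%). None was lower by edgeR, where 5.35% of genes were, and none was lower by DESeq2 or limma-voom or at an unadjusted p below 0.05, since all 7 fold changes were positive, as were those of 56.2% of genes. In either direction, 14.7% of genes passed. The median log2 fold change of the 7 was 1.68, against 0.10 over all genes tested. Slfn1, Slfn2 and Slfn8 also passed a log2 fold change of 2, as did 4.78% of all genes. Slfn2, Slfn5 and Slfn8 had no overlap between the groups, and 11.6% of genes were separated in that direction and 9.11% in the other. With library size alone or by FPKM, ox-LDL replicate 2 fell among or below the controls for Slfn5 and Slfn8, and of these 3 genes Slfn2 stayed separate. At an adjusted p below 0.05, Slfn4 was added, which made 5 of 7 against 16.2% of genes.

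**Figure D1:**
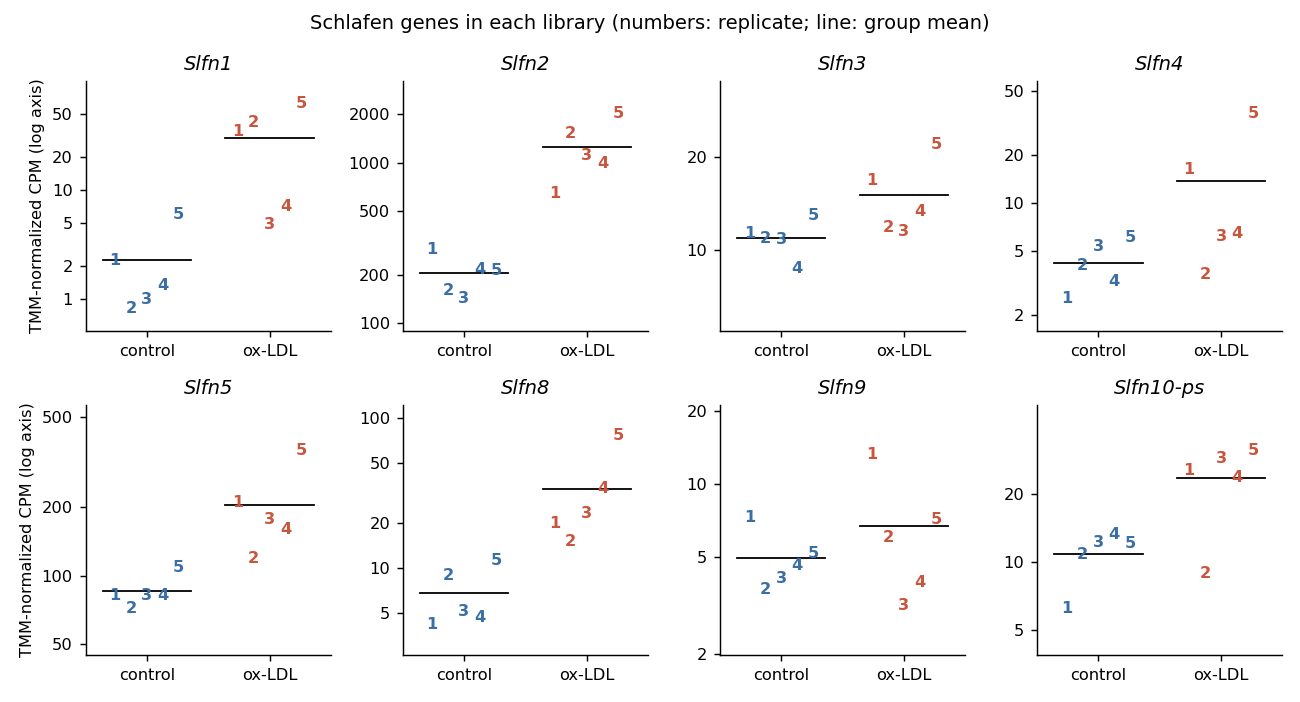
TMM-normalized CPM (log axis) of the 7 Schlafen genes and Slfn10-ps in each library, with the replicate number as the symbol and the group mean as a line. Slfn2, Slfn5 and Slfn8 are separated between control and ox-LDL on this scale (Slfn5 and Slfn8 overlap with library size alone), Slfn9 is intermixed, and ox-LDL replicate 5 is the highest library for 6 of the 7 members.

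Among the short members, Slfn2 (NCBI gene 20556, chr11:82878614-82884180 of mm9, plus strand) is needed for the quiescence of T cells and monocytes. Its levels were 291, 159, 143, 217 and 214 CPM in control replicates 1 to 5. The ox-LDL libraries had 642, 1528, 1109, 992 and 2017 CPM in the same order. The lowest ox-LDL library was more than double the highest control library. Group means were 205 ± 58.0 and 1258 ± 529 CPM (SD, n = 5 each). The log2 fold change by edgeR was 2.62 ± 0.35 (SE) at an adjusted p of 2.40e-04. Its p of 0.00794 in the two-sided exact permutation test is the smallest that 5 libraries against 5 allow. Of the members, Slfn2 was the one whose call held under each of the 21 alternatives tried, with log2 fold changes of 2.35 to 2.79.

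Slfn1 (NCBI gene 20555, chr11:82930351-82936172, plus strand) restrains T cell growth when overexpressed. It was at 2.27, 0.813, 0.984, 1.34 and 5.95 CPM in the controls. The levels after ox-LDL were 34.6, 41.8, 4.83, 7.08 and 62.1 CPM. Its ox-LDL libraries thus fell into a high set (replicates 1, 2 and 5) and a low set (replicates 3 and 4), and replicate 3 lay below control replicate 5. The means were 2.27 ± 2.13 and 30.1 ± 24.2 CPM (SD, n = 5 each), and the log2 fold change by edgeR, 3.72 ± 0.78 (SE), was the highest of the family at an adjusted p of 0.00435, with p = 0.0159 in the exact permutation test. Slfn1 ranked 217 of 12654 genes by fold change and Slfn2 ranked 439. The call of Slfn1 was lost without ox-LDL replicate 5 (3.29, adjusted p = 0.0127 from edgeR) and without any 1 of control replicates 1 to 4 (adjusted p of 0.0130 to 0.0150), and its log2 fold change rose to 4.48 when control replicate 5 was left out.

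Neither intermediate member passed the threshold. Slfn4 (NCBI gene 20558, chr11:82988688-83003723, plus strand) is known from myeloid cells, in which macrophage activation raises it. In the controls it was at 2.54, 4.07, 5.35, 3.24 and 6.12 CPM. In the ox-LDL libraries its levels were 16.3, 3.60, 6.19, 6.46 and 36.2 CPM. Replicates 1 and 5 stood well above the controls, replicates 3 and 4 were just above the highest control, and replicate 2 was among the controls. Its log2 fold change by edgeR was 1.68 ± 0.56 (SE), which did not pass at an adjusted p of 0.0439, and the exact permutation test gave p = 0.0635. Leaving out ox-LDL replicate 5 gave 0.91 (adjusted p = 0.132 by edgeR).

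Slfn3 (NCBI gene 20557, chr11:83004832-83028656, plus strand) starts 1108 bases past the end of Slfn4 and is known from differentiating intestinal epithelium. Its controls were at 11.3, 10.9, 10.8, 8.76 and 12.9 CPM. The ox-LDL libraries were at 16.8, 11.8, 11.5, 13.3 and 22.0 CPM. The values ran from 8.76 to 22.0 CPM, and 3 of 5 ox-LDL libraries were above the highest control. Its log2 fold change by edgeR, 0.47 ± 0.21 (SE), did not pass at an adjusted p of 0.126. Leaving out ox-LDL replicate 5 gave 0.28 (adjusted p = 0.261 by edgeR). The exact permutation test gave p = 0.0476 for the difference of 4.16 CPM, and with library size alone this p was 0.333. Slfn3 and Slfn4 are 95.3% identical over 1524 aligned coding bases, and 13.9% of the 50-base words of Slfn3 transcripts also occur in another Schlafen gene, mostly Slfn4. How reads that match both genes were assigned is not stated, so the split between these genes is uncertain.

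Among the long members, Slfn5 (NCBI gene 327978, chr11:82764851-82776443, plus strand) has a human counterpart that acts in the nucleus and can repress interferon-stimulated transcription. The controls had 81.8, 71.3, 81.6, 81.7 and 109 CPM. After ox-LDL the levels were 211, 119, 178, 159.98 and 356 CPM. Control replicate 5 and ox-LDL replicate 2 were the libraries nearest to the other group, and the groups did not overlap on this scale. With library size alone, ox-LDL replicate 2 was at 70.6 CPM, below the controls (74.8 to 126 CPM), and its deposited value of 13.67 FPKM lay among those of the controls (13.66 to 22.9 FPKM). The group means were 85.1 ± 14.1 and 205 ± 90.7 CPM (SD, n = 5 each). By edgeR the log2 fold change was 1.27 ± 0.28 (SE) at an adjusted p of 0.00578, with p = 0.00794 in the exact permutation test. The fold change stayed positive in every alternative, but the call was lost in 9 of 21 of them, for instance with library size alone (1.10, adjusted p = 0.0315 from edgeR) and without any 1 of control replicates 1 to 4 or ox-LDL replicates 1 and 3. Slfn5 overlaps an antisense gene, 1700003F17Rik, and since the use of strand in counting is not stated, reads of these genes cannot be told apart.

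Slfn8 (NCBI gene 276950, chr11:82815660-82834312, minus strand) is a long member with the helicase-like domain. Its control levels were 4.204, 8.94, 5.13, 4.64 and 11.2 CPM. The ox-LDL libraries had 19.7, 15.1, 23.1, 33.5 and 76.2 CPM. With TMM every ox-LDL library exceeded every control, and replicate 5 was more than double the next library. With library size alone, ox-LDL replicate 2 was at 8.92 CPM, below control replicates 2 (10.3 CPM) and 5 (12.9 CPM), and its 2.3 FPKM likewise lay among the controls (0.940 to 3.25 FPKM). The means were 6.82 ± 3.08 and 33.5 ± 24.8 CPM (SD, n = 5 each). By edgeR, its log2 fold change was 2.29 ± 0.46 (SE) with an adjusted p of 0.00336, and the exact permutation test gave p = 0.00794. Without control replicate 1, 3 or 4 the adjusted p was 0.0111 to 0.0119 from edgeR, at log2 fold changes of 2.16 to 2.20.

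Slfn9 (NCBI gene 237886, chr11:82793131-82805332, minus strand) was the member with the smallest change. In the controls it was at 7.25, 3.68, 4.06, 4.64 and 5.17 CPM. The ox-LDL levels were 13.2, 5.99, 3.17, 3.92 and 7.11 CPM. Replicate 1 was the 1 ox-LDL library above all controls, whereas replicate 3 was below all of them. Its log2 fold change by edgeR was 0.43 ± 0.37 (SE) at an adjusted p of 0.420, and the exact permutation test gave p = 0.460. Without ox-LDL replicate 1 the log2 fold change was 0.02 and the difference of the means was 0.0895 CPM, against 1.72 CPM with it.

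Slfn8 and Slfn9 are 92.7% identical over 2733 aligned coding bases, and their upstream sequences both carry the same ISRE match. The ratio of Slfn8 to Slfn9 within a library, on the log2 scale, was 0.39 ± 0.84 in control and 2.26 ± 1.24 in ox-LDL libraries (SD, n = 5 each; exact permutation test, p = 0.0317, adjusted p = 0.0740 over the 21 pairs of members compared). Both genes share 50-base words mostly with the pseudogene Slfn10-ps, which lies between Slfn8 and Slfn2: 14.6% of the words of Slfn8 and 14.2% of those of Slfn9. At 100 bases the shares were 3.38% and 4.68%. The read length and the assignment of reads that match several genes are not given in the sources used here, so the levels of Slfn8, Slfn9 and Slfn10-ps and the ratio of Slfn8 to Slfn9 are uncertain in the same way. Slfn10-ps itself was at 6.195, 10.7, 12.2, 13.2 and 12.1 CPM in the controls and at 25.4, 8.905, 28.8, 23.7 and 31.1 CPM in the ox-LDL libraries. Of these, ox-LDL replicate 2 lay within the controls and the other 4 were above them. The log2 fold change of Slfn10-ps by edgeR, 1.12 ± 0.31 (SE), missed the threshold at an adjusted p of 0.0210 and passed it without ox-LDL replicate 2 (1.29, adjusted p = 6.63e-04). Slfn14, beyond Slfn3, had at most 2 counts in any library and was not tested.

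**Figure D2:**
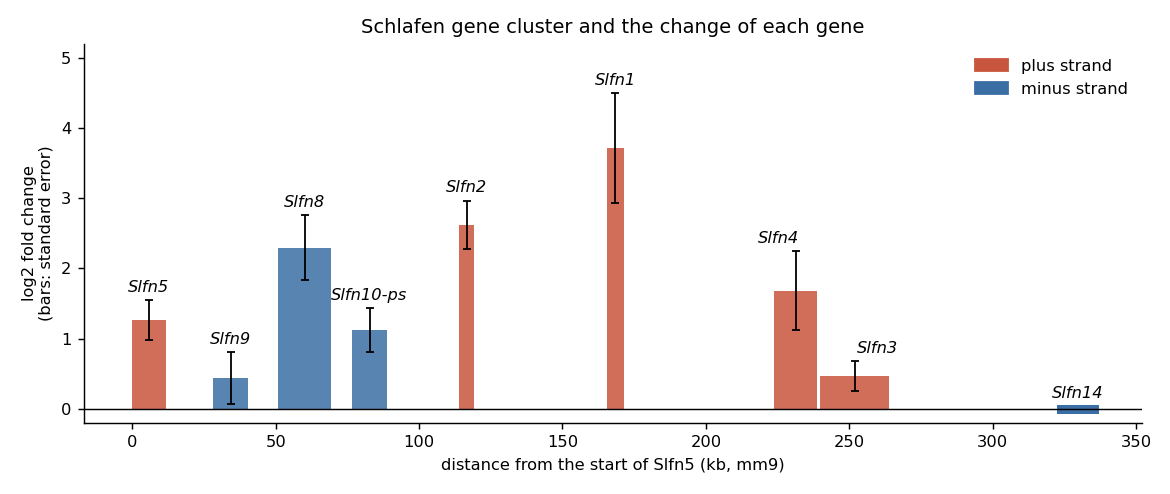
Log2 fold change (ox-LDL over control, edgeR) of each Schlafen gene drawn over its extent in the cluster, as distance in kb from the start of Slfn5 in mm9, coloured by strand, with bars for the standard error. Slfn1 and Slfn2 in the middle and Slfn8 to their left pass a log2 fold change of 2, Slfn9 and Slfn3 are the lowest of those tested, and Slfn14 is drawn at 0 because it was not tested.

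Position in the cluster did not order the changes. Slfn4 and Slfn3 at the right end are separated by 1108 bases and had log2 fold changes of 1.68 and 0.47. Slfn8 lies between Slfn9 (0.43) and Slfn10-ps (1.12). Of the protein-coding genes that border the cluster, Nle1 had a log2 fold change of -0.36 (adjusted p = 0.265 from edgeR) and Ap2b1 of 0.30 (adjusted p = 0.411), and neither passed. Fndc8, Unc45b and Gm17307 were not among the genes tested. Of the genes of this region described here, those that passed were Slfn1, Slfn2, Slfn5 and Slfn8.

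Within-library ratios show which members changed unequally without depending on the scaling factor of a library. A library's trend on gene length, as in ox-LDL replicate 2, was not removed from them. Of the 21 pairs, 7 differed between the groups at an adjusted p below 0.05 over the pairs (two-sided exact permutation test). In these, an adjusted p of 0.0333 stood for an exact p of 0.00794 and one of 0.0477 for 0.0159. Slfn2 rose more than Slfn3 by 2.13 on the log2 scale (adjusted p = 0.0333, permutation test), more than Slfn5 by 1.38 (adjusted p = 0.0477) and more than Slfn9 by 2.27 (adjusted p = 0.0333). Slfn1 rose more than Slfn3 by 3.11 (adjusted p = 0.0477, permutation test) and more than Slfn9 by 3.25 (adjusted p = 0.0333). The ratio of Slfn3 to Slfn5 fell by 0.75 and that of Slfn3 to Slfn8 fell by 1.72 (adjusted p = 0.0333 for each, permutation test). For Slfn2 and Slfn8 the ratio moved by 0.40 (adjusted p = 0.483, permutation test), with 4.15 to 6.11 in control and 4.73 to 6.66 in ox-LDL libraries. For Slfn4 and Slfn5 it moved by 0.07 (adjusted p = 0.873, permutation test), with -5.01 to -3.93 in control and -5.05 to -3.30 in ox-LDL libraries.

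Between genes, levels were compared per gene length, by the deposited FPKM (fragments per kilobase of transcript, scaled to library size). Slfn2 was by far the most abundant member, with a mean of 140.0 FPKM in control and 734 FPKM in ox-LDL libraries. In control macrophages it was followed by Slfn5 (16.5 FPKM) and Slfn3 (4.00 FPKM), and the ranges of these 3 genes did not overlap. Below them Slfn10-ps (1.92), Slfn8 (1.91), Slfn1 (1.43), Slfn4 (1.42) and Slfn9 (0.930 FPKM) overlapped with their neighbours in the order. In ox-LDL-treated macrophages Slfn2 alone was separate. Slfn5 (38.8), Slfn1 (15.2), Slfn8 (8.12), Slfn3 (4.80), Slfn10-ps (4.01), Slfn4 (3.76) and Slfn9 (1.17 FPKM) each overlapped with the next, so Slfn1 and Slfn8 had mean levels above that of Slfn3 where they had been below it.

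The summed FPKM of the 7 members was 166 ± 28.6 in control and 806 ± 251 in ox-LDL libraries (SD, n = 5 each). It ranged from 136 to 198 FPKM in control and from 589 to 1217 FPKM in ox-LDL libraries. Slfn2 held 84.1% ± 3.77 of this sum in control and 91.0% ± 3.84 in ox-LDL libraries (SD, n = 5 each). The share of Slfn5 was 10.1% ± 2.24 in control and 4.88% ± 1.98 in ox-LDL libraries, although its own level rose. Slfn3 held 2.44% ± 0.54 and 0.628% ± 0.256, and Slfn1 held 0.794% ± 0.678 and 1.95% ± 1.52. The shares of Slfn8 were 1.17% and 0.951%, those of Slfn4 0.887% and 0.452%, and those of Slfn9 0.560% and 0.167%. Single libraries carried part of these shares, since Slfn9 held 0.0908% without ox-LDL replicate 1 and Slfn1 held 0.493% of the control sum without control replicate 5. Without Slfn2, the other 6 members summed to a mean of 26.2 FPKM in control and 71.8 FPKM in ox-LDL libraries, with ox-LDL replicate 2 (34.3 FPKM) below control replicate 5 (38.4 FPKM).

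**Figure D3:**
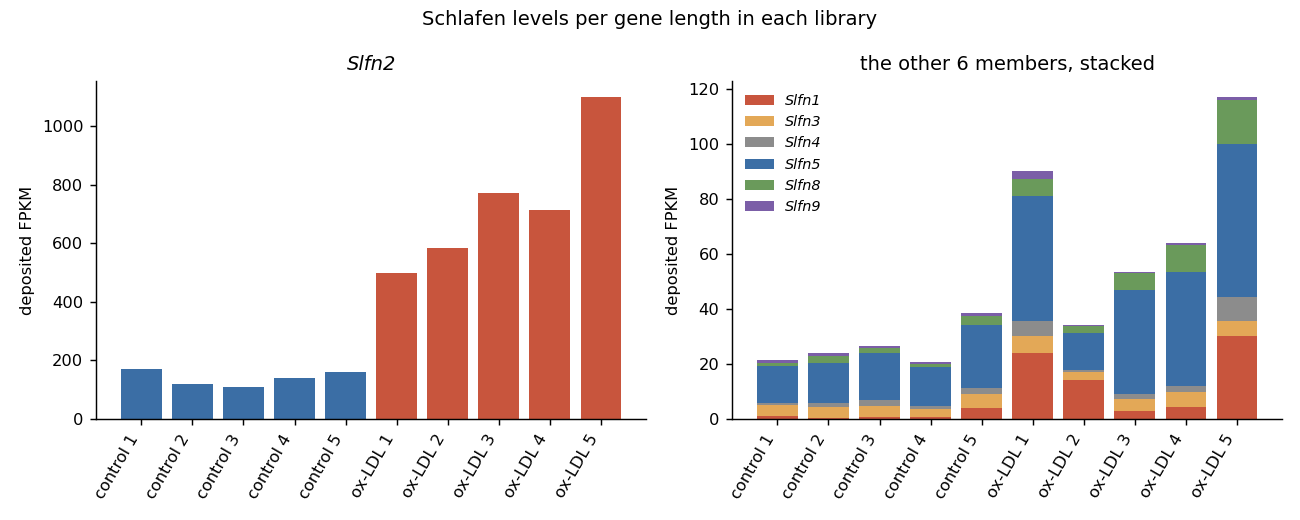
Deposited FPKM of Slfn2 (left) and of the other 6 members, stacked (right), in each of the 10 libraries. Slfn2 rises from at most 172 FPKM in control to at least 499 FPKM in ox-LDL libraries, and Slfn5 is the next most abundant member in every library except ox-LDL replicate 2, where Slfn1 (14.2 FPKM) and Slfn5 (13.7 FPKM) are close.

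The ox-LDL libraries did not respond evenly across the family. Replicate 5 was the highest ox-LDL library for 6 of 7 members, and Slfn9 was highest in replicate 1. The lowest ox-LDL library was replicate 2 for Slfn4, Slfn5 and Slfn8, replicate 3 for Slfn1, Slfn3 and Slfn9, and replicate 1 for Slfn2. Among controls, replicate 5 was highest for 5 of 7 members. Without TMM, Slfn1 was at 6.86 CPM in control replicate 5 and at 0.937 to 2.07 CPM in the other controls, and this excess over the median of the other controls was 10.8% of its level in ox-LDL replicate 5. For Slfn5 the corresponding values were 126 CPM, 74.8 to 96.1 CPM and 14.9%, and for Slfn8 they were 12.9 CPM, 3.85 to 10.3 CPM and 11.9%. Slfn3, Slfn4 and Slfn9 had excesses of 18.7%, 10.3% and 21.5%, with Slfn9 inside the range of the other controls (5.96 against 4.24 to 6.63 CPM). For Slfn2 the excess was 2.82%, and control replicate 5, at 246 CPM, was inside the range of the other controls (169 to 266 CPM). The cause of the higher levels in this control library was not tested.

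**Figure D4:**
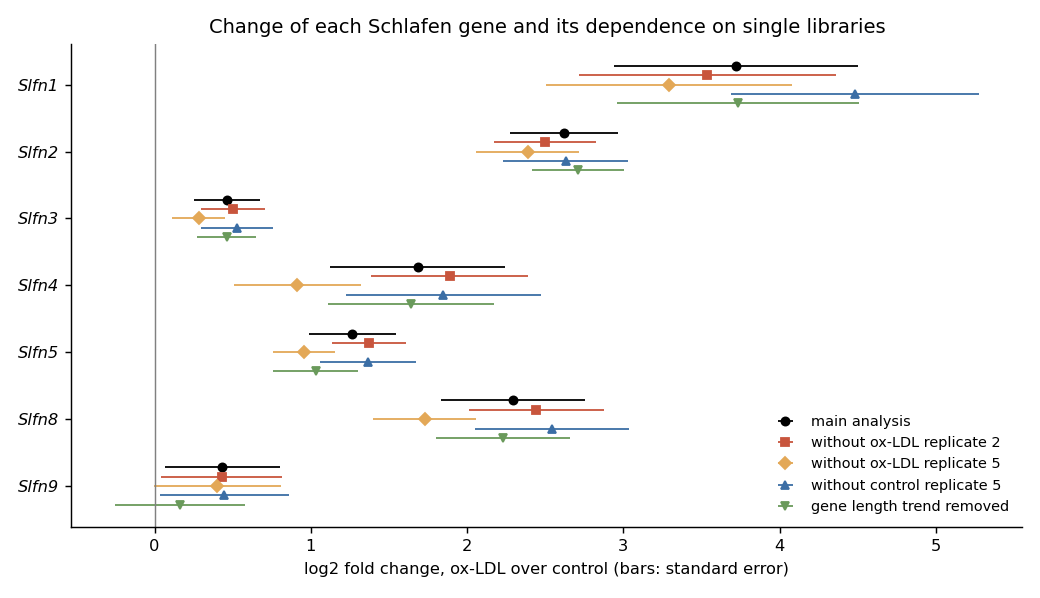
Log2 fold change (ox-LDL over control) of each member in the analysis of all libraries, without ox-LDL replicate 2, ox-LDL replicate 5 or control replicate 5, and with each library's trend on gene length removed, with bars for the standard error. Over the settings drawn, Slfn2 lies between 2.39 and 2.71, Slfn4 falls from 1.68 to 0.91 without ox-LDL replicate 5, and Slfn1 rises from 3.72 to 4.48 without control replicate 5.

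In ox-LDL replicate 2, the members followed their length in part. The length implied by the deposited counts and FPKM had a median of 1698 bases for Slfn1 and 1509 bases for Slfn2, and these short genes lay above their ox-LDL mean in that library by 1.00 and 0.39 on the log2(CPM + 1) scale. Slfn4 (3329 bases), Slfn8 (3877 bases) and Slfn5 (5375 bases) deviated by -1.25, -0.86 and -0.68. Slfn3 (2923 bases) deviated by -0.29, and Slfn9, at 5528 bases the longest, by 0.00. With each library's trend on gene length removed, Slfn2 had a log2 fold change of 2.71 and Slfn8 of 2.23, and both still passed. Slfn5 had 1.03 and no longer passed (adjusted p = 0.0112 from edgeR). The trend was fitted to deviations from the mean of all libraries, so a difference between the groups by length was removed with it. With ox-LDL replicate 2 left out instead, Slfn5 had 1.37 and passed (adjusted p = 9.46e-04 from edgeR).

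**Figure D5:**
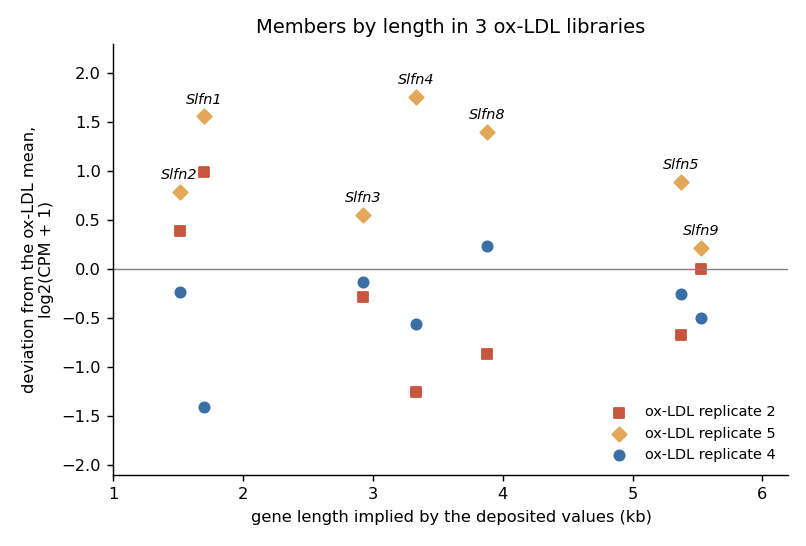
Deviation of each member from its ox-LDL mean, in log2(CPM + 1), against the gene length implied by the deposited values (kb), for ox-LDL replicates 2, 4 and 5. Replicate 5 is above the mean for all 7 members, and replicate 2 is above it for Slfn1 and Slfn2, below it for Slfn3, Slfn4, Slfn5 and Slfn8, and at 0.00 for Slfn9.

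The pathway that induces Schlafen genes was described by 2 lists of genes. Of 30 interferon targets, all were tested, 27 were higher at an adjusted p below 0.01 from edgeR (9.4% of all genes tested), none was lower (5.35% of all genes), and 3 did not pass, with a median log2 fold change of 3.08 against 1.68 for the Schlafen genes. Since all 30 fold changes were positive, none was lower at an unadjusted p below 0.05 or by DESeq2 or limma-voom either. The highest were Gbp2 (6.52), a guanylate-binding protein, Ifit2 (6.11), an antiviral RNA-binding protein, and Ifi44 (5.97). The lowest were Eif2ak2 (0.69, adjusted p = 0.0303), the RNA-activated kinase PKR, Ddx58 (1.11, adjusted p = 0.0278), the RNA sensor RIG-I, and Ifih1 (1.33, adjusted p = 0.00324 from edgeR), the RNA sensor MDA5. Slfn1 thus lay above the median of these targets, and Slfn3, at 0.47, and Slfn9, at 0.43, lay below the lowest of them. Trim30a (1.54, adjusted p = 0.0125) was the remaining target that did not pass.

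Of the 18 interferon ligands, receptors, kinases and factors listed, 17 were tested, 9 were higher by edgeR at an adjusted p below 0.01 (9.4% of all genes tested), 1 was lower (5.35% of all genes) and 7 did not pass. Among ligands, Ifng was at 0 in control replicates 1 to 4 and 0.217 CPM in control replicate 5, and at 1.35 to 24.2 CPM in the ox-LDL libraries, and it passed (adjusted p = 8.60e-04 from edgeR). Ifnb1 was at 0 in every control and at most 0.358 CPM after ox-LDL, too low to be tested. The receptor chains moved apart: Ifnar2 was higher (1.58, adjusted p = 0.00438 from edgeR) and Ifngr1 was lower (-1.66, adjusted p = 1.84e-04), while Ifnar1 (0.21, adjusted p = 0.617) and Ifngr2 (0.16, adjusted p = 0.604) did not pass. Of the kinases, Jak2 was higher (1.64, adjusted p = 1.12e-04 from edgeR), and Jak1 (0.81, adjusted p = 0.0298) and Tyk2 (0.15, adjusted p = 0.684) did not pass. Of the transcription factors listed, Stat2 was higher (2.10, adjusted p = 3.71e-04 from edgeR) and Irf9 (1.00, adjusted p = 0.0117) did not pass, and the others are given below.

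The interferon regulatory factors Irf1 (4.70, adjusted p = 2.14e-05 from edgeR), Irf7 (4.54, adjusted p = 6.51e-04) and Irf8 (3.24, adjusted p = 1.46e-04) were higher, while Irf2 (0.15, adjusted p = 0.647) and Irf3 (-0.16, adjusted p = 0.487) did not pass. Both inhibitors of the pathway were higher, Usp18 with a log2 fold change of 2.17 (adjusted p = 0.00608 from edgeR) and Socs1 with 5.12 (adjusted p = 7.12e-04). The 3 members with an ISRE match in the promoter had log2 fold changes of 1.27 (Slfn5), 2.29 (Slfn8) and 0.43 (Slfn9). Those with the shared run, which was defined from these same 3 promoters, had 3.72 (Slfn1), 2.62 (Slfn2) and 1.68 (Slfn4). Slfn3, with no ISRE match and only part of the run, had 0.47. A link between these sequences and the fold changes was not tested. Since the run was taken from 3 chosen members, setting their fold changes side by side is no test of such a link.

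Genes whose level followed each member most closely over the 10 libraries are given as a description, by Pearson's r of log2(CPM + 1). These libraries share the group difference, so r was also taken after subtracting each group's mean. For Slfn2 the closest were Smim3 (0.992), Marchf5 (0.989) and Pla2g7 (0.989), and with group means taken off Tradd (0.972), Trp53rka (0.947) and Htr2b (0.941). For Slfn1 they were H2-T10 (0.987), Gbp9 (0.980) and Vhl (0.978), and with group means taken off Fcgr1 (0.976), H2-T10 (0.967) and Gbp9 (0.963). Slfn3 and Slfn4 shared their closest gene, Ddx58 (0.974 and 0.973), followed by Sephs2 (0.951) and Flot1 (0.949) for Slfn3 and by Itpk1 (0.949) and Blm (0.940) for Slfn4. With group means taken off, the closest were Oasl2 (0.966), Parp12 (0.966) and Ddx58 (0.964) for Slfn3, and Stom (0.978), Ddx58 (0.974) and Apobr (0.965) for Slfn4.

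Slfn5 was followed most closely by Ezh2 (0.988), Khdc4 (0.985) and Vav1 (0.985), and within groups by Ubr7 (0.971), Ezh2 (0.969) and Timm29 (0.969). For Slfn8 the closest were Stat3 (0.990), Gpd2 (0.989) and Etv6 (0.988), and within groups Arnt (0.980), Stat3 (0.972) and Gpd2 (0.970). Over the 10 libraries Slfn9 had the loosest neighbours, with Trim5 (0.953), Oas1b (0.870) and Rnf135 (0.867). Within groups its closest were Sash3 (0.964), Trim5 (0.950) and Fanca (0.942), with r near those of the other members. Among the members, with group means taken off, Slfn4 was close to Slfn5 (0.923) and to Slfn3 (0.899), whereas Slfn8 and Slfn9 had -0.12. Slfn2 had 0.03 with Slfn4 and 0.41 with Slfn1 on the same measure.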

How the data were processed

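Bulk RNA was sequenced on BGISEQ-500 from 5 control and 5 ox-LDL-treated macrophage samples, grouped by the labels. According to the submitters' processing notes, FastQC, HISAT2 (2.0.5, on mm9), SAMtools (1.4) and StringTie (1.3.3.13) were used for quality, alignment, sorting and assembly. The authors deposited estimated counts per gene, not normalized (13.6% of values not whole). The deposited values per library carry no unit and are treated as FPKM, because count divided by value and library total gave a nearly constant length per gene. The counting step and its use of strand are not given in the sources used here. Symbols came from RefSeq (GRCm38.p6) by NCBI identifier, and gene positions from GENCODE on mm9.

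Counts were rounded, 9788 circular RNA rows were left out, and genes were kept by filterByExpr and normalized by TMM. The 12654 genes kept were tested with edgeR 4.0.16 (quasi-likelihood, robust, R 4.3.3) with Benjamini-Hochberg adjustment over all of them, at an adjusted p below 0.01. Single values were compared by two-sided exact permutation over 252 arrangements (SciPy 1.17.1), at p below 0.05. Alternatives were DESeq2 1.42.0, limma-voom (limma 3.58.1), upper-quartile and DESeq2 scaling, library size alone, other filters (none, or at least 10 counts in every library) and thresholds, removal of each library's trend on gene length, a block for the replicate number, single libraries left out, and limma on log2(FPKM + 1), restricted to genes at 1 FPKM or more in 5 libraries. Procedures were tested on simulated data. Coding sequences were aligned with Biopython 1.88. No library was found to be a duplicate of another. Whether the replicate numbers pair the libraries is not known. The deviations of same-numbered libraries correlated at -0.419 to 0.512. These deviations also hold each library's trend on gene length, so they cannot settle it. The biological coefficient of variation was 37.3%. Where nothing shows that samples came from separate animals, p-values measure the spread between these samples, which may be technical.

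The members and lists were chosen with earlier results of these data known. Named were all members and other Schlafen genes, the 3 protein-coding genes on each side of the cluster, all interferon regulators, the 3 highest and 3 lowest interferon targets, and the 3 genes closest to each member. Trim30a was named after its value was seen. Some single genes are not reported here.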

Additional observations from a re-analysis of the deposited data

Results flagged for a closer look

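A library was marked when its gap to the nearest other library of its group exceeded 0.71 of the group's range. This was looked for in 52 groups of 5 libraries and found in 7, where independent, normally distributed groups would give about 2.6. The groups share the same libraries and most marks fell on control replicate 5, so 7 against 2.6 is no test. Slfn1 was at 5.95 CPM in control replicate 5, where the next control had 2.27 CPM (0.717 of the range). Slfn5 was at 109 CPM in control replicate 5, where the next control had 81.8 CPM (0.724 of the range). The same library was highest among controls for Ifng (0.217 CPM, with 0 in the others), Irf7 (66.3 against 17.9 CPM), Irf8 (141 against 96.2 CPM) and Socs1 (1.48 against 0.567 CPM). In ox-LDL replicate 5, Ifnar1 was at 193 CPM against 100 CPM in the next library.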

How the results depend on the processing

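Of 506 values recomputed under an alternative, 452 kept their direction and their side of the threshold, or stayed within the limits set for a count or share, 39 lost the threshold, 5 newly passed it, 10 counts moved by more than 1.5 times, and 0 reversed. For Slfn1, the log2 fold change was 3.49 with limma-voom (adjusted p = 0.0122) and 3.66 without a filter on low counts (adjusted p = 0.0371), and with 1 library left out it ranged from 3.29 to 4.48. For Slfn5, it was 1.10 with library size alone (adjusted p = 0.0315 from edgeR), 1.03 with the length trend removed (adjusted p = 0.0112) and 1.08 with limma on log2(FPKM + 1) (adjusted p = 0.0264), and with 1 library left out it ranged from 0.96 to 1.37, and to 1.49 without the pair of libraries named below. For Slfn8, it was 2.23 without a filter (adjusted p = 0.0130 from edgeR) and 1.51 with limma on log2(FPKM + 1) (adjusted p = 0.0113), and with 1 library left out it ranged from 1.73 to 2.54, and to 2.71 without that pair. The number of members higher was 4 in the analysis of all libraries, 2 without a filter, 2 with limma on log2(FPKM + 1), and 1 to 4 with 1 library left out, with 1 left without control replicate 1, 3 or 4 and 2 without control replicate 2. Of all genes tested, 9.4%, 4.14% and 5.44% were higher in the first 3 of these settings. The share was 6.39% to 7.16% without any 1 of control replicates 1 to 4. In the exact permutation test, the difference of Slfn3 was 2.68 CPM with library size alone (p = 0.333) and 0.804 FPKM on the deposited values (p = 0.270), and it was 2.44 to 5.06 CPM with 1 library left out. That of Slfn4 passed without control replicate 5 (9.94 CPM, exact permutation p = 0.0476) and without ox-LDL replicate 2 (12.01 CPM, p = 0.0159), within a range of 3.86 to 12.01 CPM over single libraries left out. With an added log2 threshold of 2, the interferon regulators lower numbered 0. Slfn10-ps passed with DESeq2 (1.10, adjusted p = 0.00444) and without ox-LDL replicate 2 (1.29), and 9 of its exact permutation tests were lost with 1 library left out. Fewer samples enter where a library is left out, and the cause of the other shifts was not tested. Over all genes, 1189 were higher, against 704 with library size alone, 570 with limma on log2(FPKM + 1), 1765 with DESeq2, 1755 without ox-LDL replicate 2 and 1843 without that library and control replicate 5, an alternative chosen after seeing the data, in which 4 members were higher. The median log2 fold change of all genes was 0.10 with TMM, -0.09 with library size alone and -0.14 with limma on log2(FPKM + 1). With the replicate number as a block, 885 genes and 4 members were higher, no call of a member changed, and Slfn2 was at 2.57 (adjusted p = 0.00221 from edgeR). Whether the numbers pair the libraries is not known, and 1 of 5 control libraries correlated best with the ox-LDL library of its own number. Slfn9 was below the FPKM filter and has no value there. Slfn1 had 19 to 137 counts in the controls, which limits the precision of its control level.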

Other observations

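The length that the deposited counts and FPKM imply for Slfn5 was 5372 to 5609 bases in control and 4203 to 5396 bases in ox-LDL libraries, with means of 5458 and 4983 bases, so the ranges overlapped. This length can vary between libraries where a gene has several transcripts. For Slfn1 the means were 1700.0 bases in both groups, and for Slfn2 they were 1510.0 and 1511 bases. Slfn3 ranged from 2604 to 3088 bases in control and from 2563 to 3215 bases in ox-LDL libraries, and Slfn4 from 2831 to 3427 and from 2848 to 3517 bases. The coding parts of Slfn3 and Slfn4 are 1554 and 1809 bases long, and those of Slfn8 and Slfn9 are 2733 bases each.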
